A study of Mus musculus with 3 samples.

Results

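The mitochondrial respiratory chain and ATP synthase genes were followed in single-cell RNA-seq of microglia, the resident macrophages of the brain, from control, hCD33M and hCD33m mice. The genes were chosen by symbol alone. All row symbols beginning with mt-, Nduf, Sdha, Sdhb, Sdhc, Sdhd, Uqcr, Cox4, Cox5, Cox6, Cox7, Cox8 or Atp5 were taken, which gave 105 of the 15635 genes listed in the 3 libraries together. Of these, 13 were encoded by the mitochondrial genome and 92 by the nuclear genome. Each genotype was represented by 1 library, and barcodes with more than 200 and at most 8000 genes were used, which were 6155 in control, 5884 in hCD33M and 6235 in hCD33m.

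All mice were 8 weeks old. The hCD33M and hCD33m mice carried a transgene for the long or the short isoform of human CD33, a sialic acid-binding receptor of myeloid cells whose isoform ratio is tied to Alzheimer's disease risk. As described for the study, the transgene stood behind a floxed stop cassette at Rosa26 with a bicistronic GFP and was switched on by Cre from Cx3cr1, the perfusion and tissue buffers held transcription inhibitors and, for storage, a translation inhibitor, and CD11b+, CD45 low and Cx3cr1+ cells were sorted. Whether the sequenced control mice carried Cre was not stated in the sources used here. Each library pooled 2 mice, so no spread between animals could be measured, no test between genotypes was possible, and every interval given below covers counting error only.

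Some facts of the libraries bear on all values. The hCD33m library was labelled Female and the others Male, yet Xist, the RNA that silences one X chromosome in female cells, had 3, 0 and 0 UMIs in control, hCD33M and hCD33m, and the Y-linked gene Ddx3y had 3074, 3831 and 3854 UMIs. The library labelled female therefore carried Y-linked transcripts at a level like the others. The libraries shared 13 to 21 barcode sequences each with another library. Clusters were formed without the respiration genes, and 8 clusters that kept microglia markers gave 4593, 4483 and 5214 microglia-like cells. In these cells the 8 microglia markers together held 24367 to 26510 UMIs per 1000000 UMIs (CPM), while the 7 monocyte markers held 9.55 to 11.3 CPM and the 4 neutrophil markers 0.389 to 2.32 CPM. The 4 erythroid markers held 235 CPM in hCD33M, with 0 and 0.138 CPM in control and hCD33m, and 1 hemoglobin-rich barcode of hCD33M is described with cluster 8. Microglia-like cells gave 29360822 UMIs in control, 30878347 in hCD33M and 36277783 in hCD33m.

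Oxidative phosphorylation is run by 5 complexes of the inner mitochondrial membrane. Complexes I to IV pass electrons from NADH or succinate to oxygen and, complex II apart, pump protons, and complex V, the ATP synthase, uses the proton gradient to make ATP. Complexes I, III, IV and V are built from products of both genomes. The mitochondrial genes are read as long polycistronic transcripts from each strand inside the organelle, whereas complex II and all assembly factors are nuclear-encoded and their mRNAs are made in the nucleus. Microglia use oxidative phosphorylation at rest and are known to shift toward glycolysis on activation.

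Complex I had 7 mitochondrial-encoded and 44 nuclear-encoded genes, the latter with 8 assembly factors. Complex II had 8 genes, of which 4 were assembly factors, complex III had 1 mitochondrial-encoded and 8 nuclear-encoded genes, and complexes IV and V had 3 and 2 mitochondrial-encoded and 16 nuclear-encoded genes each. Ndufa4 was counted with complex IV, where its protein sits. Since 3′ libraries give 1 UMI per captured transcript, levels are given in captured UMIs and are not divided by length. Some mitochondrial genes overlap, so that reads there cannot be split with certainty. The 2 same-strand overlaps longer than 1 base are shown because they touch mt-Atp8 and mt-Nd4l, whose levels are therefore uncertain. Both are read from the plus strand of mm10, with bases annotated in both transcripts in capitals and flanks in lower case. The first lies at chrM:7903-7993 and shares 43 bases, and the second lies at chrM:10143-10197 and shares 7 bases.

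mt-Atp8 and mt-Atp6: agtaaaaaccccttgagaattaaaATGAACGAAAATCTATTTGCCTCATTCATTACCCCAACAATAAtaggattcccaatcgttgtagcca
mt-Nd4l and mt-Nd4: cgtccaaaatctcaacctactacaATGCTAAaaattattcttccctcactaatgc

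The overlap of mt-Nd5 and mt-Nd6 was 14 bases on opposite strands, and mt-Nd6 was the only mitochondrial-encoded member on the minus strand. A nuclear row named Atp5o.1 could be matched to no single gene, because 2 annotated genes share the symbol Atp5o.

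The nuclear-encoded members are known targets of nuclear respiratory factor 1 (NRF1) and of ETS-family factors, so their promoters were searched in windows from 250 bases before to 50 bases after the gene start (RefSeq, GRCm38.p6). Of the 92 nuclear-encoded members, 75 had such a window under their symbol. The 17 others were not searched. The NRF1-type motif GCGCANGCG, on either strand, was found in 23 of the 75 (30.7%), against 7.03% of the 27025 genes with a window. The ETS core CCGGAAG was found in 21 of the 75 (28.0%), against 9.93% of all, and 7 members held both. The 27025 genes outnumber the 15635 with a row here, and no share among expressed genes was computed. A match is a description of letters and not a binding site. In each complex the member with the highest mean level among those with the motif is shown, as 90 bases of the gene's own strand with whole NRF1-type matches in capitals. These 5 stretches lie at chr16:37654511-37654600 (Ndufb4, minus strand), chr13:74350290-74350379 (Sdha, minus), chr10:80406778-80406867 (Uqcr11, minus), chr5:115349072-115349161 (Cox6a1, minus) and chr15:102671041-102671130 (Atp5g2, minus).

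Ndufb4: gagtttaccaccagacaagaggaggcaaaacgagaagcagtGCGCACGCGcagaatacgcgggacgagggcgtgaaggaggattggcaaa
Sdha: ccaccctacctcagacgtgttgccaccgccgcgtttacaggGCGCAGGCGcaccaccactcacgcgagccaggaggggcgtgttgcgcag
Uqcr11: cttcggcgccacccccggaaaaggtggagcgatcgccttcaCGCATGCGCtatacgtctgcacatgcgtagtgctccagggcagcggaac
Cox6a1: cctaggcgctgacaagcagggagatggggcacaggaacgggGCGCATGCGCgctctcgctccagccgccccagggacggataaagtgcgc
Atp5g2: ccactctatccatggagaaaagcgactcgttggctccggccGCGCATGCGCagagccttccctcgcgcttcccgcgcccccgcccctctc

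By complex, the NRF1-type motif was in 10 of 39 windows of complex I, 4 of 7 of complex II, 2 of 5 of complex III, 1 of 12 of complex IV and 6 of 12 of complex V. Members with and without the motif had median levels of 98.0 and 105 CPM.

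In microglia-like cells the 13 mitochondrial-encoded genes held more UMIs than the 92 nuclear-encoded genes in every library. Mitochondrial-encoded members took 1.71% of UMIs in control (1.701 to 1.711%, the exact Clopper-Pearson interval at 95%), 1.44% for hCD33M (1.439 to 1.447%) and 1.46% for hCD33m (1.457 to 1.465%). Nuclear-encoded members took 1.05% (1.044 to 1.051%), 1.02% (1.017 to 1.024%) and 1.07% (1.066 to 1.073%). Thus 1.63, 1.41 and 1.37 mitochondrial-encoded UMIs were captured for each nuclear-encoded one, and the control library stood above both transgenic libraries.

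The level of the mitochondrial-encoded genes was led by complex IV. mt-Co3, a core subunit of cytochrome c oxidase, had 2939, 2525 and 2482 CPM in control, hCD33M and hCD33m and ranked 20th to 25th among all genes. mt-Co1, the catalytic subunit that binds oxygen, had 2450, 1835 and 1918 CPM. The 3 complex IV genes together made up 43.0 to 44.1% of mitochondrial-encoded UMIs in each library. mt-Atp6 of the ATP synthase had 2247, 1954 and 2043 CPM, and mt-Cytb, the cytochrome b of complex III, had 2191, 1894 and 1906 CPM. Of complex I, mt-Nd1, mt-Nd4 and mt-Nd2 lay between 1069 and 1494 CPM. The lowest in captured UMIs were mt-Atp8, with 36.9, 29.4 and 36.4 CPM, and mt-Nd6, with 18.7, 14.3 and 17.5 CPM. How fully the RNA of each gene was captured was not tested.

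**Figure D1:**
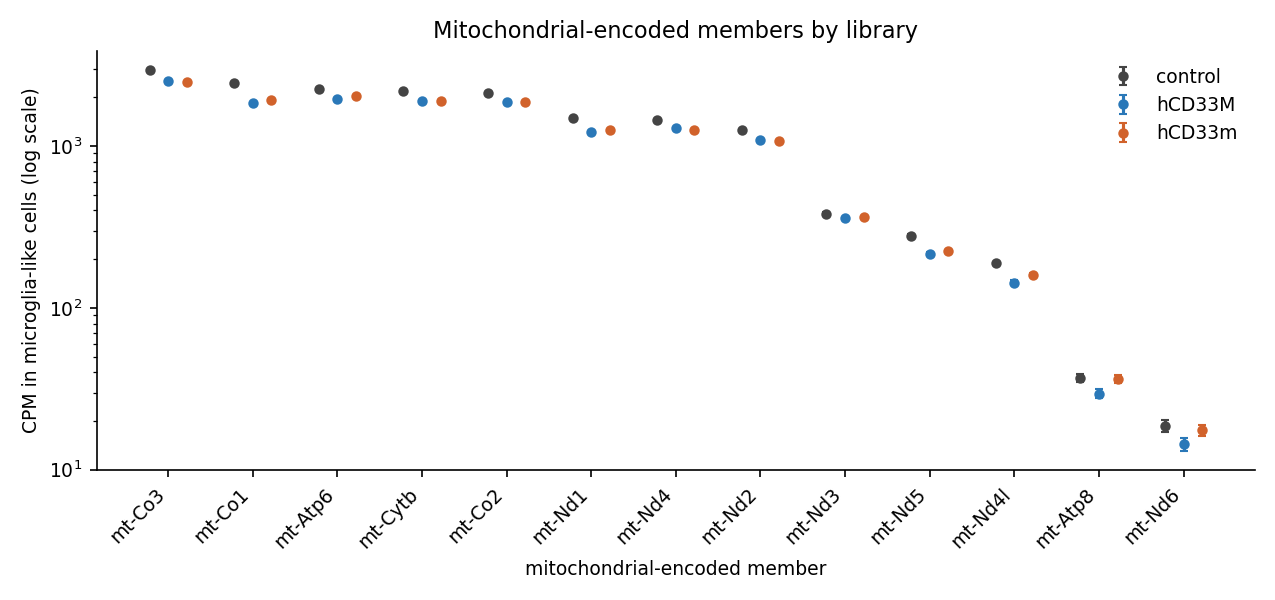
Level of each mitochondrial-encoded gene in microglia-like cells, in CPM on a log scale, with 1 point per library and bars for the exact Poisson 95% interval, which is mostly hidden by the point. The control point is the highest of the 3 for each gene, and the order of the genes is led by mt-Co3 and ends with mt-Atp8 and mt-Nd6.

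All nuclear-encoded members lay under the 8 leading mitochondrial-encoded genes by a wide margin, though many lay above mt-Atp8 and mt-Nd6. The highest was Cox4i1, the common isoform of a regulatory subunit of complex IV, with 383, 351 and 396 CPM, close to mt-Nd3 at 382, 357 and 364 CPM, and it ranked 353rd to 389th among all genes. Cox8a and Cox7c, small subunits of the same complex, had 344, 316 and 336 CPM and 303, 280 and 307 CPM. In complex V the leading members were Atp5e, the epsilon subunit, with 286, 262 and 267 CPM, Atp5g2, which codes for the rotating c ring, with 283, 271 and 283 CPM, and Atp5b, the catalytic beta subunit, with 219, 226 and 245 CPM. In complex I, Ndufc2 had 206, 203 and 200 CPM, Ndufa13 had 195, 187 and 192 CPM, and Ndufa2 had 161, 166 and 166 CPM. In complex III the hinge protein gene Uqcrh led with 204, 187 and 199 CPM, followed by Uqcrb with 154, 156 and 156 CPM and Uqcrq with 151, 152 and 157 CPM. Complex II was the lowest, with its flavoprotein Sdha at 97.3, 94.7 and 96.5 CPM and its iron-sulfur protein Sdhb at 94.5, 97.2 and 102 CPM, and its membrane anchor Sdhd at 60.5, 57.6 and 56.1 CPM.

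Isoforms gave a single pattern in all libraries, with the common form present and the muscle, heart or testis form at no more than 7.22 CPM. Cox6a1 had 117, 117 and 128 CPM against 5.96, 5.70 and 7.22 CPM of Cox6a2. For Cox6b1 the levels were 213, 197 and 214 CPM, against 2.01, 2.30 and 1.85 CPM of Cox6b2. Cox7a2 had 155, 161 and 165 CPM against 0.545, 0.518 and 0.469 CPM of Cox7a1. Cox4i2, the hypoxia-linked form, had 6 UMIs in control and no row in the other files, while Cox8b and Ndufa4l2 had no row in any of the 3. The 3 genes that code for the same mature c subunit were all present, with Atp5g2 above Atp5g1 at 135, 131 and 147 CPM and Atp5g3 at 78.2, 78.02 and 79.1 CPM. Cox7a2l, which is known for joining complexes III and IV, had 215, 202 and 207 CPM, and Ndufa4 had 207, 198 and 208 CPM.

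Between the libraries, the mitochondrial-encoded genes were lower in both transgenic libraries than in control, by less than the 1.5-fold used here as the size for a call. On the log2 scale the summed mitochondrial-encoded share was -0.22 from control in hCD33m (95% counting interval from -0.23 to -0.22) and -0.24 in hCD33M (from -0.25 to -0.24). With equal weight to each depth band these were -0.13 and -0.12. All 13 genes had a ratio below 0 in both comparisons, with mt-Co1 at -0.35 (-0.37 to -0.34) and -0.42 (-0.43 to -0.40) and mt-Nd5 at -0.33 (-0.37 to -0.28) and -0.38 (-0.43 to -0.33). The smallest differences in hCD33m were those of mt-Atp8, at -0.02 (-0.14 to 0.10), and mt-Nd3, at -0.07 (-0.11 to -0.03), and the interval of mt-Nd6, at -0.09 (-0.26 to 0.07), also included 0. The 2 transgenic libraries lay close to each other, with a summed difference of 0.02 (0.01 to 0.02) for hCD33m against hCD33M, which turned to -0.02 over all barcodes and to -0.13 as a mean over cells.

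Of the members, 95 reached the minimum of 20 CPM in a library of each comparison, and none passed 1.5-fold, where a call also needed an interval that left out no change. Over all genes, the same rule called 1.18% of 6785 in hCD33m against control, 0.973% of 6781 in hCD33M against control and 0.680% of 6765 in hCD33m against hCD33M, so a count of 0 among 95 members was near the background. The other 10 members lay under the minimum level. With a smaller limit, a level at least 20% lower or 25% higher than control, mt-Co1 and mt-Nd5 were lower in hCD33m, and mt-Co1, mt-Nd5, mt-Nd4l and mt-Atp8 were lower in hCD33M. Over all genes that limit called 6.31% in hCD33m and 4.45% in hCD33M, beside 2 and 4 of 95 members. The called members were all among the 12 measured mitochondrial-encoded genes, and none of the 83 measured nuclear-encoded members was called.

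The nuclear-encoded members did not share this offset. Their summed share differed from control by 0.03 (0.02 to 0.04) in hCD33m and by -0.04 (-0.04 to -0.03) in hCD33M, with -0.0021 in hCD33m where clusters were drawn at a resolution of 0.4. The median gene of the 83 measured nuclear-encoded members had a log2 ratio of 0.03 in hCD33m and -0.02 in hCD33M, whereas the median of the 12 measured mitochondrial-encoded members was -0.22 and -0.21, and the median of all genes measured was 0.01 in both. By complex, nuclear-encoded medians in hCD33m ran from -0.01 for complex II to 0.05 for complex IV, and in hCD33M from -0.06 for complex V to 0.01 for complex II. In hCD33m against hCD33M, all 12 measured nuclear-encoded members of complex IV and all 8 of complex III had ratios above 0, with medians of 0.10 and 0.10, where 3484 of 6765 of all genes did. The intervals of 10 of the 12 and 5 of the 8 lay above 0, where those of 1500 of the 6765 did. Uqcrb of complex III was at 6.2e-05. Cox4i1 gave 0.17 (0.14 to 0.21) in that comparison. The cytoplasmic ribosomal protein genes had a median of 0.08 in the same comparison. Of 87 measured, 81 had ratios above 0 and 71 had intervals above 0. Their part in the difference was not tested.

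No single nuclear-encoded gene was called. The largest ratios of hCD33m to control by complex were those of Ndufs6 at 0.18 (0.09 to 0.27) and Ndufb6 at 0.18 (0.07 to 0.29) in complex I and of Sdhaf1, an assembly factor, at -0.16 (-0.28 to -0.03) and Sdhd at -0.11 (-0.20 to -0.02) in complex II. In complex III they were Uqcrc1, a core protein, at 0.19 (0.11 to 0.27) and Uqcr10 at 0.07 (0.00 to 0.13). Complex IV had Cox7b at 0.21 (0.15 to 0.28) and Cox6a1 at 0.13 (0.07 to 0.20), and complex V had Atp5b at 0.16 (0.12 to 0.21) and Atp5c1, the gamma subunit of the rotor, at 0.14 (0.08 to 0.19). The 8 measured assembly factors had a median of -0.01, and Ndufaf4, named for its value, gave the largest ratio of any measured nuclear-encoded member between hCD33m and hCD33M, -0.25 (-0.34 to -0.15).

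**Figure D2:**
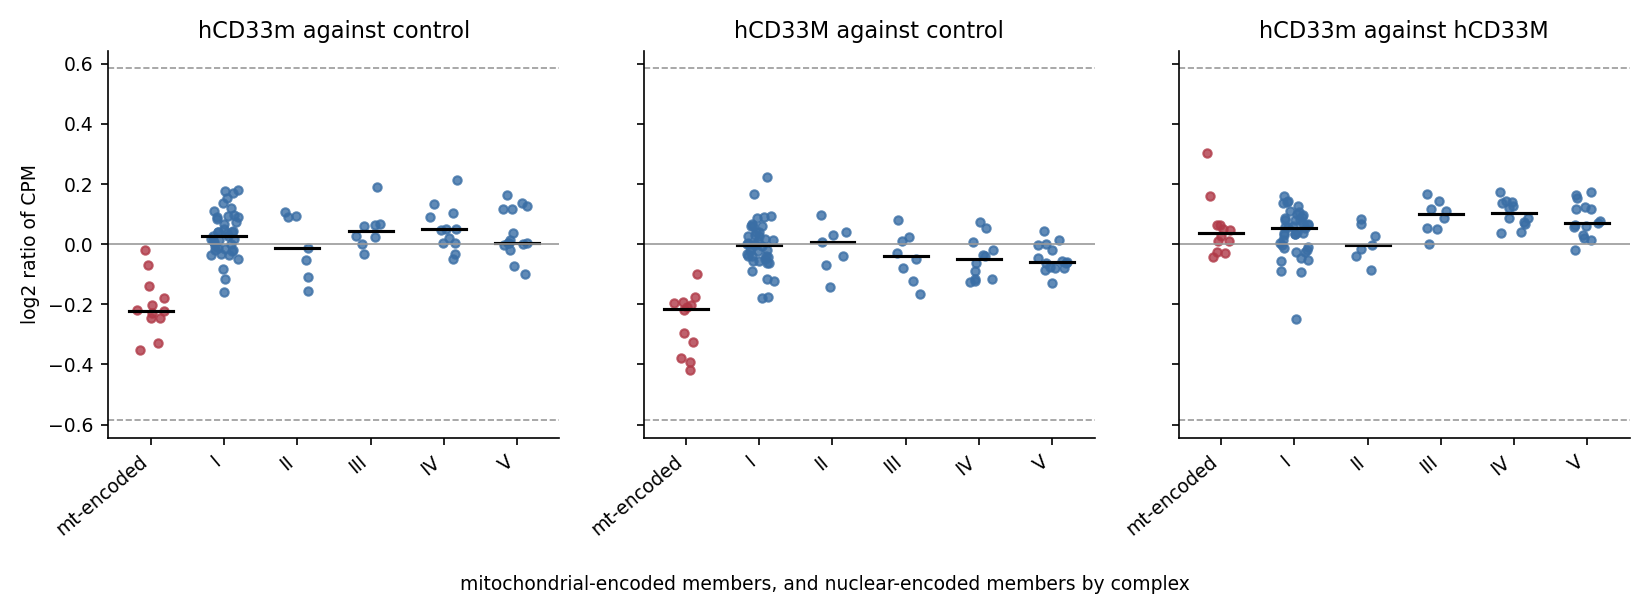
Log2 ratio of the CPM of each member between libraries in microglia-like cells, for members with at least 20 CPM in any library, with mitochondrial-encoded members first and nuclear-encoded members by complex. Lines are medians and dashed lines mark 1.5-fold, which no member reaches. The mitochondrial-encoded medians lie at -0.22 and -0.21 against control and at 0.04 in hCD33m against hCD33M.

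Other measures moved between the libraries too. Immediate early genes, which respond fast to handling and activation, held 5260, 8388 and 11205 CPM in control, hCD33M and hCD33m, and 17 of 22 measured were called higher in hCD33m against control. Ribosomal protein genes had a median log2 ratio of -0.14 in hCD33M and -0.03 in hCD33m against control. The low-UMI clusters 4 and 5, described below, held 24.03, 22.6 and 13.9% of barcodes. Cluster 3, which is microglia-like and also rich in mitochondrial-encoded UMIs, held 13.01, 14.4 and 6.88%, so that the microglia-like cells were made up differently in each library, and at a cluster resolution of 0.4 the hCD33m ratio was -0.17. The part of these values in the offset of the mitochondrial-encoded genes was not tested. Inside depth bands, which mix cell classes, the mitochondrial-encoded share was below control in 5 of 5 in hCD33M (from -0.38 to -0.11) and in 4 of 5 in hCD33m (from -0.48 to 0.14). In the 10 clusters with at least 200 cells the mitochondrial-encoded share was below control in 9 in hCD33M and in 8 in hCD33m. Cluster 3 in hCD33m was only at -0.02 (-0.04 to -0.0002). The exceptions were cluster 4 in both, at 0.03 and 0.16, and cluster 5 in hCD33m, at 0.18.

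The 2 genomes were set apart far more between depth bands than between genotypes. Barcodes were split by their UMIs from genes outside the respiration list, so that the list itself did not place them. Those other UMIs are also most of the denominator of each share, so the split and the shares are not independent. A higher share is relative to the other UMIs and does not mean more UMIs of the members per barcode, which were not compared. In the band under 1000 UMIs the mitochondrial-encoded share was 6.29, 5.79 and 6.94% in control, hCD33M and hCD33m. It was 4.36, 4.03 and 4.13% from 1000 to under 2000 UMIs, 2.12, 1.63 and 1.51% from 2000 to under 4000, and 1.54, 1.32 and 1.41% from 4000 to under 8000. Above that it was 1.65, 1.38 and 1.46%. The nuclear-encoded share was lower in the shallow bands, with 0.430, 0.454 and 0.416% in the lowest band, 0.434, 0.382 and 0.483% from 1000 to under 2000, 0.851, 0.891 and 0.989% from 2000 to under 4000, and 1.13, 1.10 and 1.14% from 4000 to under 8000 UMIs. The ratio of mitochondrial-encoded to nuclear-encoded UMIs was 12.8 to 16.7 in the lowest band and 1.196 to 1.36 from 4000 to under 8000. The bands also differ in cell class. In the lowest band 63 of 1106, 63 of 1013 and 63 of 688 barcodes were microglia-like. From 4000 to under 8000 UMIs 2177 of 2202, 1940 of 1958 and 2514 of 2551 were. In microglia-like cells only, the mean log2 ratio between these bands was 1.76 for the mitochondrial-encoded sum (2.15 over all barcodes) and -1.29 for the nuclear-encoded sum (-1.37).

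**Figure D3:**
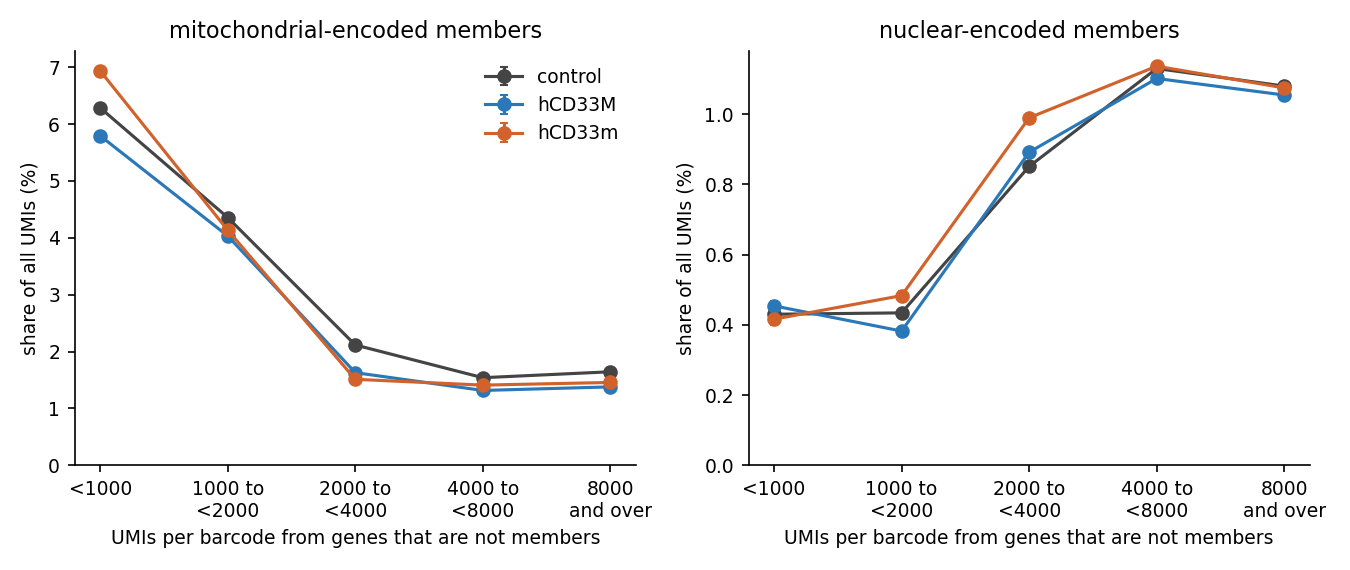
Share of all UMIs (%) from mitochondrial-encoded members (left) and nuclear-encoded members (right) by depth band, with 1 line per library and exact 95% intervals that are mostly smaller than the points. From the lowest band to 4000 to under 8000 UMIs the mitochondrial-encoded share goes from 5.79 to 6.94% down to 1.32 to 1.54%, while the nuclear-encoded share goes from 0.416 to 0.454% up to 1.10 to 1.14%.

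Gene by gene, the split followed the genome and not the complex. Barcodes under 1000 UMIs were set against those of 4000 to under 8000. The 12 mitochondrial-encoded genes that reached 20 CPM in the deeper barcodes were all called higher in each library. Over all genes 12.1% of the 6755 measured were, and 677 of the 6290 with that level in the deeper barcodes. The mean log2 ratios of the 12 over the libraries ran from 1.45 for mt-Nd5 to 2.35 for mt-Cytb. The latter had 9536, 8725 and 10062 CPM in the lowest band against 1981, 1726 and 1850 CPM. mt-Nd6, from the other strand, passed the minimum only through the shallow barcodes, with 77.7, 74.4 and 75.4 CPM against 17.5, 13.02 and 18.4 CPM. Of the 83 nuclear-encoded members measured, 70 were called lower in each library and 0 higher, where 18.0% of all genes were called lower. Of the 73 with at least 20 CPM on both sides in each library, 64 were lower, where 830 of 5095 of all such genes were. The median was -1.48, against -0.07 for all genes.

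All measured nuclear-encoded members of complexes III (8), IV (12) and V (15) were called lower in shallow barcodes, and 31 of 41 of complex I and 4 of 7 of complex II were. Atp5e went from 312, 287 and 288 CPM to 75.3, 88.5 and 52.8 CPM, a mean ratio of -2.06. Cox4i1 went from 412, 384 and 423 CPM to 145, 160 and 132 CPM, a mean ratio of -1.48. The 13 not called had mean ratios from -1.36 for Sdhd to 0.32 for Ndufaf4, and those nearest to no change are given here, chosen after their values were seen. Sdha had 80.1, 73.1 and 94.3 CPM in the lowest band against 98.0, 98.2 and 93.1 CPM, and its intervals included 0 in control and in hCD33m, though not in hCD33M. Ndufaf4, an assembly factor of complex I, had 77.7, 53.9 and 64.1 CPM against 52.3, 55.6 and 47.4 CPM. Ndufs1 and Ndufaf7, with mean ratios of 0.17 and 0.22, and Sdhaf2 and Ndufa10, with -0.36 and -0.48, were not called either.

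Cytoplasmic ribosomal protein genes and nuclear noncoding RNAs moved with depth as well. Ribosomal protein genes held 21170 to 21762 CPM in the lowest band and 63177 to 69525 CPM from 4000 to under 8000 UMIs, and 81 of 88 measured were called lower, while the nuclear noncoding RNAs (a list with Malat1) held 108809 to 121037 CPM against 47441 to 52676 CPM and 5 of 5 were called higher. Microglia markers held 17659 to 25062 CPM in the lowest band against 24338 to 25870 CPM, but in cluster 5, described below, they held only 8985, 8567 and 8595 CPM. The part of these lists in the shares of the members was not tested. Among the other mitochondrial genes of nuclear origin, 30 of 52 measured mitochondrial ribosome genes, 9 of 13 import and outer membrane genes and 6 of 7 uncoupling and peroxide genes were called lower. Of 17 TCA cycle genes 3 were lower and 1 higher, and of 12 genes for mitochondrial DNA expression 2 were lower and 1 higher. Over all genes 18.0% were called lower and 12.1% higher, so the last 2 lists were near the background.

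The clusters repeated the division. Cluster 5, led by Gm26917 and AY036118 with a median of 704 UMIs, had mitochondrial-encoded shares of 6.09, 5.34 and 6.89% and nuclear-encoded shares of 0.402, 0.421 and 0.374%. Cluster 4, with a median of 1028 UMIs, had 5.42, 5.52 and 6.06% and 0.519, 0.656 and 0.531%. In hCD33M these cluster 4 shares include 1 barcode of 22517 UMIs, with 11.4% mitochondrial-encoded and 5.69% nuclear-encoded UMIs. That barcode had only 4 microglia marker UMIs, and shares without it were not computed. Clusters 4 and 5 both stayed unnamed, cluster 5 with 2 microglia markers and cluster 4, which had 7, for its low UMIs. Though the members had been kept out of the clustering, 7 mitochondrial-encoded genes were among the 10 leading genes of cluster 4. Cluster 3, microglia-like with a median of 1770 UMIs, had 3.55, 3.27 and 3.50% and 0.382, 0.361 and 0.387%. Cluster 3 was set against the deeper microglia-like clusters other than cluster 8. The 12 mitochondrial-encoded genes with at least 20 CPM in those clusters were all called higher in cluster 3 in each library. Over all genes 6.56% of 6661 were, and 379 of 6425 with that level in those clusters. Of the nuclear-encoded members 75 of 83 were called lower (27.9% of all genes were). Of 68 with at least 20 CPM on both sides, 62 were lower, where 1096 of 4983 of all such genes were. mt-Nd6, which passed the minimum only through cluster 3, had 55.5, 43.3 and 54.8 CPM there against 16.1, 12.5 and 16.4 CPM.

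**Figure D4:**
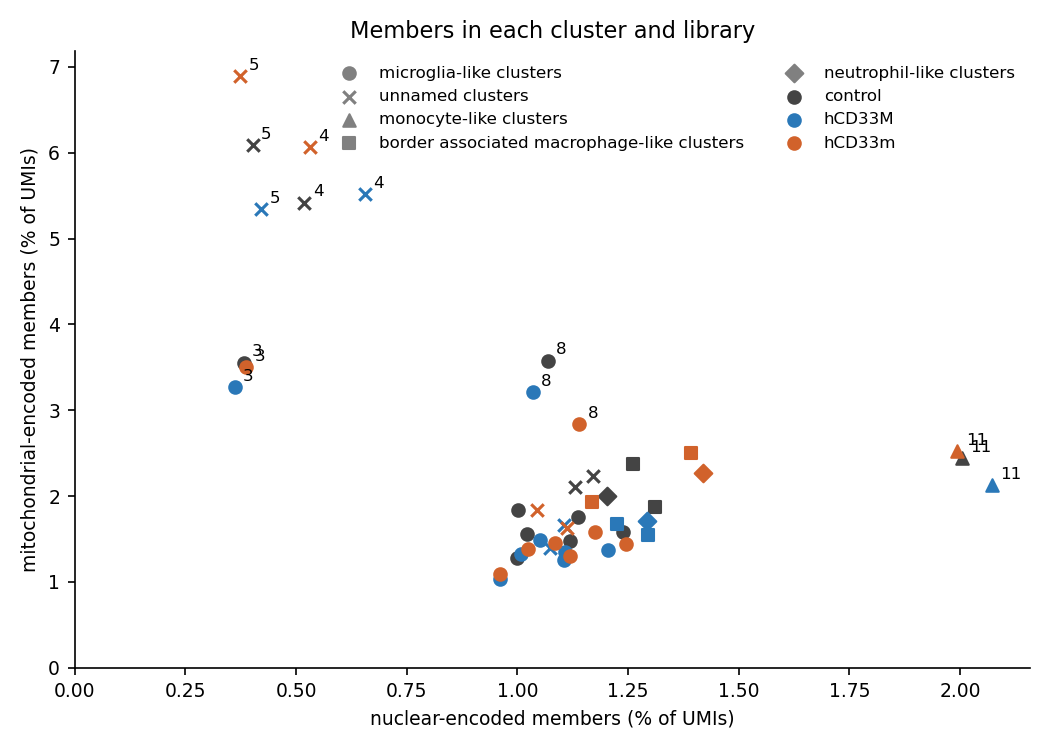
Mitochondrial-encoded against nuclear-encoded share of UMIs (%) in each cluster and library, with marker shape for the class and colour for the library. Clusters 3, 4 and 5 lie at 0.361 to 0.656% nuclear-encoded and over 3% mitochondrial-encoded. The 0.656% is cluster 4 of hCD33M, which includes 1 barcode of 22517 UMIs with 5.69% nuclear-encoded UMIs. Cluster 8 lies at 2.84 to 3.58% mitochondrial-encoded with a nuclear-encoded share near that of the other deep microglia-like clusters. The monocyte-like cluster 11 lies farthest right.

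One microglia-like cluster of ordinary depth departed from this division. Cluster 8, with 413 cells and a median of 4911 UMIs, was led by Cst7, Vcam1, Chst2 and Hcar2, and Il1b was among its 10 leading genes. Its mitochondrial-encoded share was 3.58, 3.21 and 2.84% in control, hCD33M and hCD33m, and its nuclear-encoded share was 1.07, 1.03 and 1.14%. Among the other microglia-like clusters of like or greater depth (0, 1, 2, 6, 7 and 10), these shares lay between 1.03 and 1.83% and between 0.961 and 1.246%. The mean log2 ratio of cluster 8 against those clusters was 1.18 for the mitochondrial-encoded sum and 0.01 for the nuclear-encoded sum.

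In cluster 8 the mitochondrial-encoded genes were higher by like amounts. The 12 with at least 20 CPM in the other clusters were all called higher in each library. Over all genes 2.02% of 6592 measured were, and 94 of 6425 with that level in the other clusters. The mean ratios of the 12 lay between 0.99 for mt-Nd5 and 1.32 for mt-Co3. mt-Co3 had 6584, 6369 and 5124 CPM in cluster 8 against 2656, 2257 and 2313 CPM in the others. mt-Nd6, which passed the minimum only through cluster 8, had 38.5, 27.7 and 26.0 CPM against 16.1, 12.5 and 16.4 CPM. No nuclear-encoded member of the 83 measured was called higher or lower, where 2.50% of genes were called lower. Cox4i1 had 519, 440 and 490 CPM against 394, 360 and 398 CPM, with intervals above 0 in each library but ratios under 1.5-fold, and Atp5e had 288, 295 and 292 CPM against 299, 272 and 270 CPM. Named after their values were seen, Ndufa1 had the highest mean ratio of the nuclear-encoded members, 0.54, and Sdhaf1 the lowest, -0.90. The mitochondrial ribosome genes had 0 of 52 called higher and 2 lower, and the genes for mitochondrial DNA expression 0 of 10 in either direction. Per cell, after thinning each cell to 1600 UMIs, the median mitochondrial-encoded share in cluster 8 was 3.62, 3.12 and 2.56% (unthinned 3.41, 2.95 and 2.68%), and in microglia-like cells of 4000 to under 8000 UMIs outside it these medians lay between 1.19 and 1.38% (unthinned 1.38, 1.17 and 1.245%). The 10th percentile in cluster 8 was 1.59, 1.31 and 1.44%, above the median of the others in each library.

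Other lists were compared in the same cells. Ribosomal protein genes held 71278, 63456 and 70372 CPM in cluster 8 and 67259, 61258 and 64021 CPM in the others, and nuclear noncoding RNAs held 55218, 62878 and 56346 CPM against 45789, 49889 and 49163 CPM. Border macrophage markers held 98.9, 114 and 85.9 CPM in cluster 8, against 11.2, 12.1 and 7.39 CPM in the others, and their part was not tested. Microglia markers held 21990, 21119 and 20831 CPM against 25855, 25503 and 24268 CPM. In hCD33M, 1 barcode of cluster 8 had 55.4% hemoglobin UMIs, and the mean ratio without it was 1.18 for the mitochondrial-encoded and 0.01 for the nuclear-encoded sum.

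Monocyte-like cells had higher shares than microglia-like cells of the nuclear-encoded members and of some mitochondrial-encoded genes. The 19, 12 and 28 monocyte-like cells, which carried Ly6c2, Plac8, Ccr2, S100a4 and Fn1, had nuclear-encoded shares of 2.004% (1.94 to 2.07%), 2.07% (1.99 to 2.15%) and 1.99% (1.94 to 2.05%), a mean log2 ratio of 0.95. Of the 83 nuclear-encoded members measured, 37 were called higher in each library and 0 lower, where 10.2% of 6845 genes were called higher and 13.4% lower. All 12 measured of complex IV, 10 of 15 of complex V, 4 of 8 of complex III and 11 of 41 of complex I were higher. Complex II had 0 of 7, which is near the 10.2% over all genes. At its low levels a call in each library is hard to reach in so few cells. Uqcrh had 714, 783 and 755 CPM against 204, 187 and 199 CPM, Atp5e had 968, 928 and 897 CPM against 286, 262 and 267 CPM, and Cox4i1 had 1035, 1098 and 1018 CPM against 383, 351 and 396 CPM. Sdha had 49.8, 80.7 and 86.4 CPM, from 9, 10 and 23 UMIs, against 97.3, 94.7 and 96.5 CPM.

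The mitochondrial-encoded genes of the monocyte-like cells did not move as a block. mt-Co1, mt-Co2, mt-Co3 and mt-Atp6 were called higher in each library, with mean ratios of 1.12, 1.00, 0.79 and 0.91. mt-Cytb had 1909, 1760 and 1990 CPM against 2191, 1894 and 1906 CPM, a mean ratio of -0.08, and the complex I genes mt-Nd1, mt-Nd2, mt-Nd3, mt-Nd4, mt-Nd4l and mt-Nd5 lay between -0.11 and 0.24. The summed mitochondrial-encoded share was 2.44, 2.13 and 2.52%, but at 4000 to under 8000 UMIs its mean ratio to microglia-like cells was -0.13, against 0.62 over all cells, whereas that of the nuclear-encoded sum was 0.72. Ribosomal protein genes held 200197 to 205619 CPM in these cells, against 58995 to 64677 CPM in microglia-like cells, and their part in the nuclear-encoded difference was not tested.

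**Figure D5:**
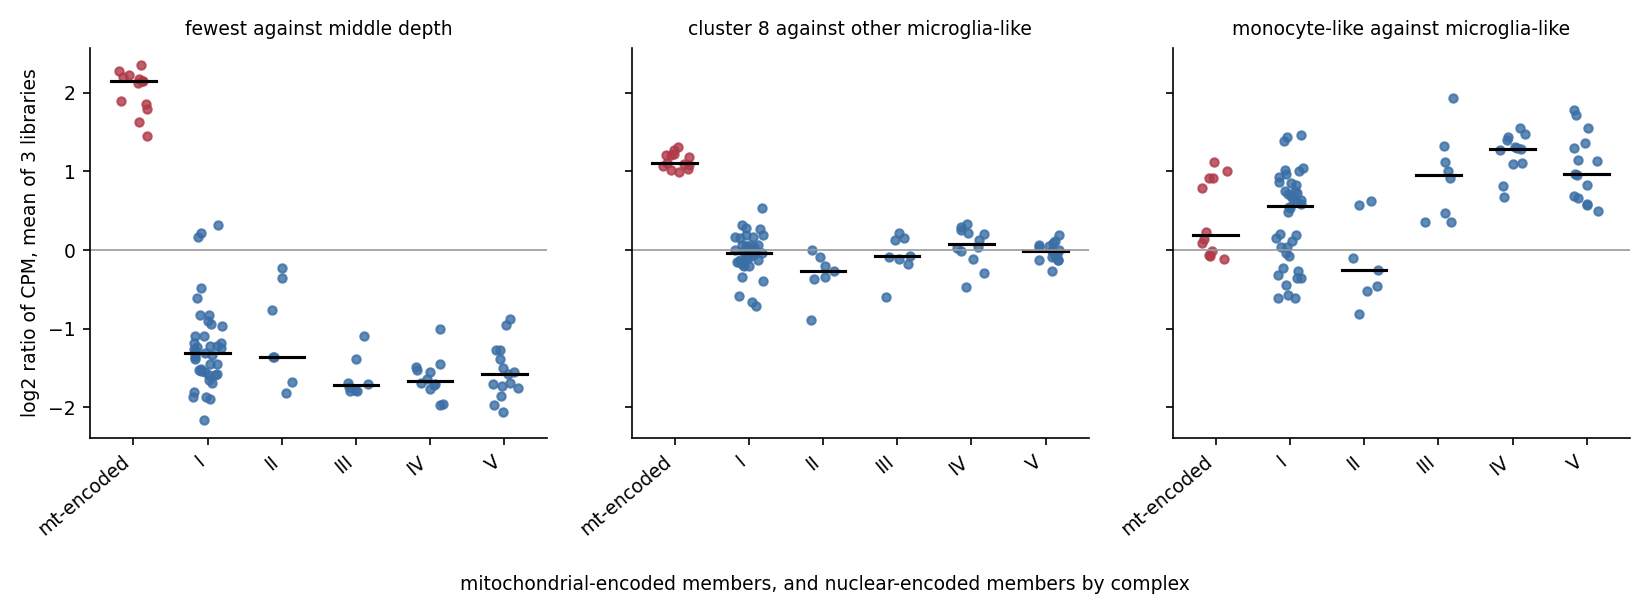
Mean over the 3 libraries of the log2 ratio of the CPM of each measured member, in barcodes under 1000 against 4000 to under 8000 UMIs, in cluster 8 against the other microglia-like clusters of like depth, and in monocyte-like against microglia-like cells. Lines are medians. The mitochondrial-encoded medians are 2.15, 1.11 and 0.19, mt-Nd6 included in the first 2 panels only, and the nuclear-encoded members lie mostly below 0, around 0 and above 0.

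Border-associated macrophage-like cells, 24, 21 and 44 in number and marked by Mrc1, Pf4 and Ms4a7, were compared in the same way. Their mitochondrial-encoded share was 1.99, 1.66 and 2.28% and their nuclear-encoded share was 1.30, 1.24 and 1.31%. The mean log2 ratio of the mitochondrial-encoded sum to microglia-like cells was 0.35, and 0.61 at 4000 to under 8000 UMIs. No member was called in either direction in each library, where 3.88% of 6753 genes were called higher and 2.83% lower. Neutrophil-like cells numbered only 4, 11 and 14 and had mitochondrial-encoded shares of 2.004, 1.72 and 2.27% and nuclear-encoded shares of 1.203, 1.29 and 1.42%.

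From cell to cell, the summed mitochondrial-encoded and nuclear-encoded UMIs gave weak rank correlations among microglia-like cells of like depth. Over 2135, 1891 and 2432 cells of 4000 to under 8000 UMIs outside cluster 8, thinned to 1600 UMIs, Spearman's rho between the 2 sums was 0.05, 0.10 and 0.10. Both sums went with ribosomal protein sums, at 0.24, 0.23 and 0.25 for the mitochondrial-encoded and 0.24, 0.29 and 0.33 for the nuclear-encoded sum. Both went against nuclear noncoding RNAs, at -0.16, -0.18 and -0.19 and at -0.30, -0.31 and -0.35. Over all microglia-like cells of at least 1600 UMIs, with cluster 3 among them, the nuclear-encoded values were 0.52, 0.52 and 0.42 and -0.53, -0.53 and -0.43, and the mitochondrial-encoded with the nuclear-encoded sum gave -0.20, -0.19 and 0.01. These are descriptions over cells that share a library. In counts this sparse weak values are no finding, and they do not show that the sums are unrelated. With immediate early genes, the mitochondrial-encoded sum gave -0.04, -0.04 and -0.07. Cells under 1600 UMIs, which were 329, 372 and 252 in number, were left out.

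Barcodes with over 10% mitochondrial-encoded UMIs were 264 (4.29%), 174 (2.96%) and 167 (2.68%) in control, hCD33M and hCD33m, with medians of 776.5, 755 and 809 UMIs. Their nuclear-encoded share was 0.405, 1.12 and 0.415%. The hCD33M barcodes included the 1 of 22517 UMIs from cluster 4, with 11.4% mitochondrial-encoded and 5.69% nuclear-encoded UMIs and only 4 microglia marker UMIs.

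Lists of other mitochondrial genes, 156 of 161 of which had a row, were set beside the members in microglia-like cells. None of the measured genes on them was called at 1.5-fold in any of the 3 comparisons. Over all genes 1.18, 0.973 and 0.680% were called, so a count of 0 was near the background. Between hCD33m and control, medians were 0.06 for 17 TCA cycle genes, 0.01 for 52 mitochondrial ribosome genes, 0.03 for 21 assembly factors outside the rule, 0.03 for 11 genes of mitochondrial DNA expression, 0.14 for 6 regulators of mitochondrial biogenesis, 0.05 for 13 import and outer membrane genes, 0.02 for 7 uncoupling and peroxide genes and 0.03 for cytochrome c and c1. Of the machinery that reads and packs mitochondrial DNA, Tfam, the packaging factor, gave 0.26 (0.13 to 0.39), from 28.0 to 33.5 CPM, with 34.4 CPM in hCD33M. Slirp, which stabilises mitochondrial mRNAs, gave 0.22 (0.13 to 0.31), and Trmt10c, of mitochondrial RNase P, gave -0.29 (-0.42 to -0.16). Mrps25 and Mrpl28 of the mitochondrial ribosome gave 0.40 (0.27 to 0.52) and 0.33 (0.20 to 0.46). The regulators Nrf1, Esrra and Tfeb gave 0.16 (0.05 to 0.27), 0.18 (0.04 to 0.32) and 0.16 (0.03 to 0.29). Cycs and Cyc1, cytochrome c and cytochrome c1, gave 0.02 (-0.06 to 0.10) and 0.03 (-0.05 to 0.12). Mrpl54 gave -0.25 (-0.36 to -0.14). Of the assembly factors outside the rule, Nubpl, Tmem70 and Ttc19 gave -0.30 (-0.46 to -0.14), 0.23 (0.12 to 0.33) and 0.20 (0.07 to 0.33). Of the TCA cycle and pyruvate dehydrogenase genes, Pdhb, Ogdh and Dld gave 0.19 (0.10 to 0.27), 0.16 (0.07 to 0.25) and -0.15 (-0.26 to -0.05). Timm44, of the inner membrane import motor, gave 0.18 (0.08 to 0.28), and the outer membrane channels Vdac3 and Vdac1 gave 0.14 (0.07 to 0.21) and 0.12 (0.05 to 0.20). Prdx3, which removes peroxide, Glrx5 and Txn2 gave -0.11 (-0.21 to -0.00), 0.08 (-0.03 to 0.20) and -0.06 (-0.16 to 0.03).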

How the data were processed

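Microglia of control, hCD33M and hCD33m mice were profiled by 10x 3′ single-cell RNA-seq, 1 library each. The authors deposited 1 table of raw UMI counts per library, made per the paper's methods with Cell Ranger on mm10 and filtered with Seurat for barcodes with more than 200 genes and genes in at least 3 cells. Human CD33 was not analysed here. Barcodes with at most 8000 genes were kept, and no doublet caller was run.

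Clusters of the 3 libraries together were formed with scanpy 1.11.5 and leidenalg 0.10.2 without the respiration, sex-linked and immediate early genes (2000 variable genes, 15 components, 20 neighbours, Leiden resolution of 0.8) and named from markers. For naming, genes had to be detected in at least 5% of a cluster's cells, and 1 cluster that held macrophage and monocyte markers was split. Both steps were chosen after seeing the data, as was the comparison of clusters 8 and 3 with other clusters. CPM are UMIs of summed cells per 1000000. Shares have Clopper-Pearson, levels exact Poisson and log2 ratios exact conditional binomial intervals at 95%, for counting error only. A gene was called at 1.5-fold with an interval leaving out no change, with at least 20 CPM in 1 side, and outside the library comparisons in each of the 3 libraries. Members and lists were chosen with earlier results of these data known. Named were all mitochondrial-encoded genes, the 3 highest subunits and 2 largest hCD33m ratios per complex, isoforms and up to 3 genes of each further list, and others are said to be named after their values were seen. Lists were cytochrome c and c1, assembly factors, TCA cycle, mitochondrial DNA expression, biogenesis regulators, import, mitochondrial ribosome, uncoupling and peroxide handling. Alternatives were other cell sets, scalings, folds, bands and resolutions, with TMM from edgeR 4.0.16 among the scalings.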

Additional observations from a re-analysis of the deposited data

How the results depend on the processing

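No paired analysis was possible because each genotype had 1 library. Of 86 alternative values of the main results, 48 stayed within the counting interval or within 1.5 times the count, and 38 moved beyond it, for which the cause was not tested. The log2 ratio of the mitochondrial-encoded share in hCD33m against control (-0.22) was -0.26 over all barcodes, -0.17 at a cluster resolution of 0.4, -0.13 with equal weight to each depth band and -0.30 as a mean over cells. In hCD33M against control (-0.24) it was -0.12 with equal weight and -0.18 over cells. In hCD33m against hCD33M (0.02) it was -0.019 over all barcodes, 0.073 at a resolution of 0.4, -0.0084 with equal weight and -0.13 over cells. The nuclear-encoded ratio in hCD33m against control (0.03) was 0.050 over all barcodes, -0.0021 at a resolution of 0.4, 0.018 with equal weight and 0.10 over cells. In hCD33M against control (-0.04) it was -0.027, -0.058 and -0.054 over all barcodes, with equal weight and over cells, and in hCD33m against hCD33M (0.07) it was 0.077, 0.038, 0.076 and 0.15 over all barcodes, at a resolution of 0.4, with equal weight and over cells. The count of members called (0) was 2 in hCD33m and 4 in hCD33M against control (6.31% and 4.45% of all genes) where a level at least 20% lower or 25% higher was enough, and 1 in each without a minimum level, which was Cox4i2 with 6 UMIs in control. Between barcodes under 1000 and of 4000 to under 8000 UMIs, the mitochondrial-encoded ratio (2.15) was 2.09 with bands on all UMIs, 1.69 with at most 10% mitochondrial UMIs and 1.76 in microglia-like cells only, where the nuclear-encoded ratio (-1.37) was -1.29. For monocyte-like cells, the mitochondrial-encoded ratio (0.62) was -0.13 at 4000 to under 8000 UMIs and 0.56 with at most 10% mitochondrial UMIs, and the nuclear-encoded ratio (0.95) was 0.72 at 4000 to under 8000 UMIs. For border-associated macrophage-like cells the mitochondrial-encoded ratio (0.35) was 0.61 at that depth and 0.24 at a resolution of 1.2, and the nuclear-encoded ratio (0.29) was 0.24 and 0.14. For cluster 8 the mitochondrial-encoded ratio (1.18) was 1.12 with at most 10% mitochondrial UMIs and 1.15 at a resolution of 1.2. Of 78 alternative values of single mitochondrial-encoded genes against control, 71 stayed within their intervals and all 78 were below 0, from -0.42 to -0.02. The monocyte-like, macrophage-like and neutrophil-like cells were few, which widens the counting intervals of their values.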
